A study of Mus musculus with 4 samples.

Results

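The immunoglobulin constant region genes and the joining chain gene Jchain were examined in RNA-seq libraries of LSK cells. LSK cells are the mouse bone marrow cells that lack lineage markers and carry Sca-1 and c-Kit, a fraction with blood stem cells and multipotent progenitors. The set held 10 genes of the 47561 gene symbols in each library: the heavy chain constant genes Ighm, Ighd, Ighg3, Ighg1, Ighg2b, Ighg2c and Igha, the light chain constant genes Igkc and Iglc1, and Jchain. They were chosen by gene symbol, with their levels in these libraries already known, so their differences are given as descriptions with no test. Libraries came from 2 Metrn cKO mice, which carried a floxed Metrn (Meteorin) gene together with LysM, and from 2 Metrn f/f mice, which carried the floxed gene alone and are also labelled wild type. All mice were C57BL/6 and 12 weeks old. LysM is the lysozyme promoter used to drive deletion in macrophages, monocytes and neutrophils, so the deletion is aimed at cells other than those sorted.

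An antibody is built from heavy and light chains, each with a variable and a constant region. The heavy chain constant gene sets the class: Ighm gives IgM, Ighd IgD, the Ighg genes the IgG subclasses and Igha IgA. A B cell first makes IgM and IgD, and class switch recombination then joins its variable region to a constant gene further along the chromosome. Plasma cells, which settle in bone marrow, secrete antibody and are the richest source of these transcripts, and the J chain links IgM and IgA into polymers. In early progenitors the unrearranged heavy chain locus is also transcribed, which gives Ighm transcripts without a variable region. B cells and plasma cells are not LSK cells, and antibodies to B lineage surface proteins are usually part of a lineage stain.

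The heavy chain constant genes lie on the minus strand of chromosome 12 in the GRCm38 assembly (mm10). In the direction of transcription Ighm comes first (chr12:113418558-113422730), Ighd starts 6.4 kb after the start of Ighm, Ighg3 61.5 kb, Ighg1 92.2 kb, Ighg2b 114.8 kb, Ighg2c 133.8 kb and Igha 162.5 kb after it. Igkc is on chromosome 6 (chr6:70726435-70726966), Iglc1 on chromosome 16 (chr16:19061618-19062071) and Jchain on chromosome 5 (chr5:88519809-88527891). The 4 IgG genes are close copies of each other, and the hinge exon is where they differ most visibly. The hinge joins the antigen-binding arms to the stem of the antibody, and its cysteines tie the heavy chains together. The hinge exons are shown 5′ to 3′ to let the subclasses be told apart, with the in-frame cysteine codons in capitals. They lie at chr12:113360529-113360576 (Ighg3), chr12:113329844-113329882 (Ighg1), chr12:113307261-113307326 (Ighg2b) and chr12:113288263-113288325 (Ighg2c).
Ighg3: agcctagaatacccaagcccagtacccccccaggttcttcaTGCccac
Ighg1: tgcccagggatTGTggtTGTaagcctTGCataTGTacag
Ighg2b: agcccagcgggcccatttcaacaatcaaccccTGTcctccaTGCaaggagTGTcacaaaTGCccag
Ighg2c: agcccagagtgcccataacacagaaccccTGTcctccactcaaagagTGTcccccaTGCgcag

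The hinge exons held 1 cysteine codon in Ighg3, 4 in Ighg1, 4 in Ighg2b and 3 in Ighg2c, over 48, 39, 66 and 63 bases. Over the coding sequence of the secreted forms, Ighg2b and Ighg2c were the closest pair, with 86.3% identical bases, and the other IgG pairs had 76.1% to 78.5%. Of all stretches of 50 bases, 5.8% in Ighg2b and 5.9% in Ighg2c also occurred in another of the compared constant genes and at 100 bases 0% did. The read length is not known here. Iglc1 was compared with the lambda genes Iglc2 and Iglc3, which were not in the set but carry the same type of light chain. The first 150 bases of the constant exon are shown for each, with the positions at which the genes are not all alike in capitals. They lie on the minus strand at chr16:19061922-19062071 (Iglc1), chr16:19198703-19198852 (Iglc2) and chr16:19065532-19065681 (Iglc3).
Iglc1: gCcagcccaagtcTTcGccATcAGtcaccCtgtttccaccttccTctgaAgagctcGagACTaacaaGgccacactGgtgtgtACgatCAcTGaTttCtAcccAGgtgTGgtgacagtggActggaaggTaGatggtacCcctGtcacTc
Iglc2: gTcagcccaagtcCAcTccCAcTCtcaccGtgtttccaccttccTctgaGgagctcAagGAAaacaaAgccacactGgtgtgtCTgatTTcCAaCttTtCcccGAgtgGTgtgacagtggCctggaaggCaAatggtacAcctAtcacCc
Iglc3: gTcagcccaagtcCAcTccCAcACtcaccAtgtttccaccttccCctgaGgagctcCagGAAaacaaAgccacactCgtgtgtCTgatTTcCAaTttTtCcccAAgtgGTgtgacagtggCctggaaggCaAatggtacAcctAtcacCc

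Iglc1 had 74.8% identical coding bases with Iglc2 and 75.4% with Iglc3, and it shared no stretch of 50 bases with either (0%). Iglc2 and Iglc3 were 96.5% identical and shared 14.3% of their stretches of 50 bases. Levels of Iglc2 and Iglc3 are therefore less certain apart than that of Iglc1.

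Values are FPKM (sequenced fragments relative to gene length and library total), a level per length that allows genes to be set side by side. Summed over all genes, FPKM ranged from 392717 to 671802, and 12175 to 12996 genes reached 1 FPKM. Read totals were unknown, so no counting error could be given. Metrn, the targeted gene, had 42.3 and 36.7 FPKM in Metrn cKO and 29.3 and 66.3 FPKM in Metrn f/f LSK cells. The groups overlapped, so the targeted gene gave no check of the labels in these cells. The libraries Metrn cKO 1 and Metrn f/f 2 stood apart from the others. The summed level of 8 neutrophil genes was 58420 and 2002 FPKM in Metrn cKO 1 and 2, against 2550 and 32530 FPKM in Metrn f/f 1 and 2. The sort marker gene Kit, the stem cell factor receptor, ran the other way, at 25.9 and 116 FPKM in Metrn cKO 1 and 2 and at 108 and 24.8 FPKM in Metrn f/f 1 and 2. Ly6a, which encodes Sca-1, did not follow Kit. It had 48.4 and 38.2 FPKM in Metrn cKO 1 and 2, and 37.2 and 83.2 FPKM in Metrn f/f 1 and 2.

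**Figure D1:**
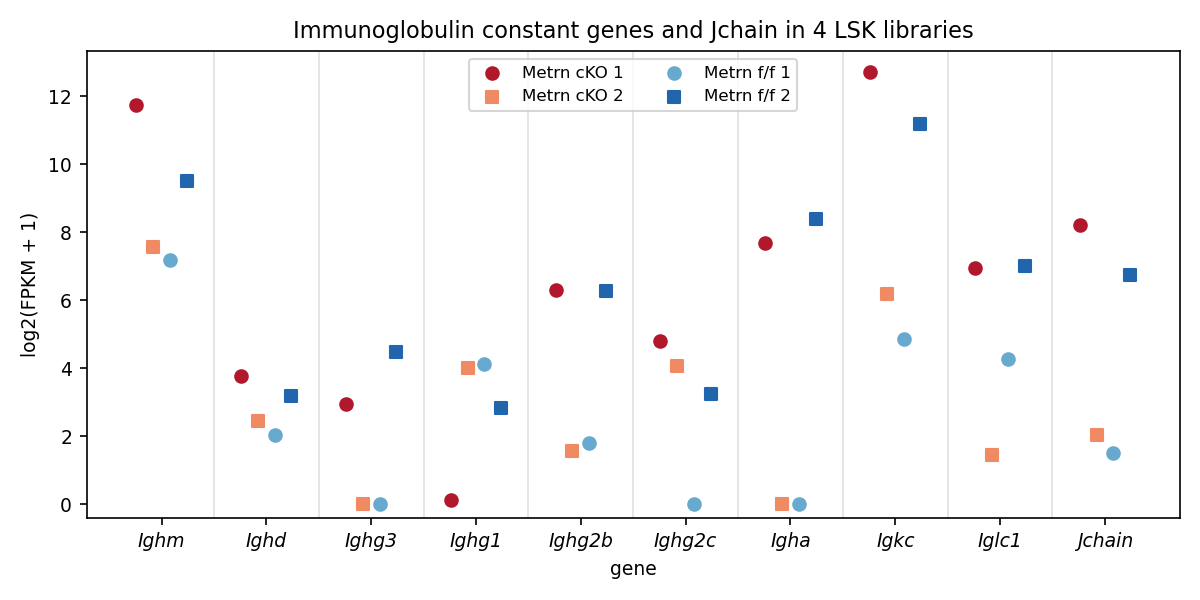
Level of each gene, as log2(FPKM + 1), in the 2 Metrn cKO libraries (red circle and orange square) and the 2 Metrn f/f libraries (light circle and dark square). Metrn cKO 1 and Metrn f/f 2 are highest for most genes, up to 6676 FPKM for Igkc in Metrn cKO 1, while Ighg1 is lowest in Metrn cKO 1.

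The heavy chain genes of unswitched B cells were compared first. Ighm, the IgM heavy chain, had 3426 FPKM in Metrn cKO 1 and 188 in Metrn cKO 2, against 144 in Metrn f/f 1 and 727 in Metrn f/f 2. The groups overlapped, because 1 library of each genotype was high and the other low. In bulk libraries such as these, fewer cells of a type and less RNA per cell cannot be told apart. The mean was 1807 ± 2289 FPKM in Metrn cKO and 436 ± 413 FPKM in Metrn f/f (SD, n = 2 each), and the log2 fold change was 1.31 (SE 1.44). Ighd, the IgD heavy chain, is made from the same primary transcript as Ighm by alternative splicing. It had 12.7 and 4.49 FPKM in Metrn cKO 1 and 2, and 3.09 and 8.18 FPKM in Metrn f/f 1 and 2, with a log2 fold change of 0.50 (SE 0.69). Ighd followed the order of Ighm over the 4 libraries with a much smaller range, so that the level of Ighm was 270 times that of Ighd in Metrn cKO 1 and 41.8 times in Metrn cKO 2, against 46.6 times in Metrn f/f 1 and 88.9 times in Metrn f/f 2. Ighm was the most abundant heavy chain gene in each of the 4 libraries.

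The IgG genes did not all follow Ighm. Ighg2b, an IgG subclass gene, had 77.1 and 1.97 FPKM in Metrn cKO 1 and 2, against 2.49 and 75.8 FPKM in Metrn f/f 1 and 2. Each genotype thus had a high and a low library at nearly the same levels, and the log2 fold change was -0.10 (SE 1.85). Ighg3 had 6.71 FPKM in Metrn cKO 1 and 21.1 FPKM in Metrn f/f 2, and was listed at 0 in Metrn cKO 2 and Metrn f/f 1. Ighg2c, the gene that C57BL/6 mice carry in place of Ighg2a, had 27.1 and 15.7 FPKM in Metrn cKO 1 and 2, and was listed at 0 in Metrn f/f 1 and at 8.43 FPKM in Metrn f/f 2. It was the 1 gene of the set whose groups did not overlap, and in no gene of the set was Metrn cKO lower without overlap. Over all 13148 tested genes, groups that did not overlap had Metrn cKO higher in 6.31% and lower in 5.73%. The size of the Ighg2c difference rested on the library listed at 0, since the log2 fold change was 2.82 (SE 1.04) with a pseudocount of 1, 4.49 with 0.1 and 1.66 with 5.

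Ighg1 ran against the other IgG genes. It had 0.0885 FPKM in Metrn cKO 1 and 15.1 FPKM in Metrn cKO 2, against 16.6 FPKM in Metrn f/f 1 and 6.08 FPKM in Metrn f/f 2. Its 2 highest values were therefore in the libraries with the lowest Ighm, Igkc and Jchain, and its lowest value was in the library with the highest of these. The log2 fold change was -1.42 (SE 1.24), and -2.59 with a pseudocount of 0.1 and -0.61 with 5. Of the IgG sum, Ighg1 made up 0.0797% in Metrn cKO 1 and 46.0% in Metrn cKO 2, against 87.0% in Metrn f/f 1 and 5.46% in Metrn f/f 2. Ighg2b made up 69.5% and 6.01% in Metrn cKO 1 and 2, and 13.0% and 68.0% in Metrn f/f 1 and 2. Ighg2c was 48.0% of the IgG sum in Metrn cKO 2, where Ighg1 and Ighg2c together were nearly all of it.

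Igha, the IgA heavy chain of mucosal antibody, had 206 FPKM in Metrn cKO 1 and 335 FPKM in Metrn f/f 2, and was listed at 0 in Metrn cKO 2 and Metrn f/f 1. No genotype fold change is printed for Igha or Ighg3, since 1 library of each genotype was listed at 0. An exact 0 in a table without counts can also be a failed estimate. Their fold changes do enter the medians and counts given for the set. As a share of the summed heavy chain constant FPKM, Igha made up 5.50% in Metrn cKO 1 and 28.4% in Metrn f/f 2. Ighm made up 91.2% and 83.4% in Metrn cKO 1 and 2, and 86.6% and 61.5% in Metrn f/f 1 and 2. The 4 IgG genes together took 2.96% and 14.6% in Metrn cKO 1 and 2, and 11.5% and 9.43% in Metrn f/f 1 and 2. The 2 libraries with high immunoglobulin levels thus differed in class: IgG and IgA together were 8.45% of heavy chain FPKM in Metrn cKO 1 and 37.8% in Metrn f/f 2. The epsilon gene Ighe, the IgE heavy chain, was listed at 0.252 FPKM in Metrn cKO 2 and at 0 in the other 3 libraries.

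**Figure D2:**
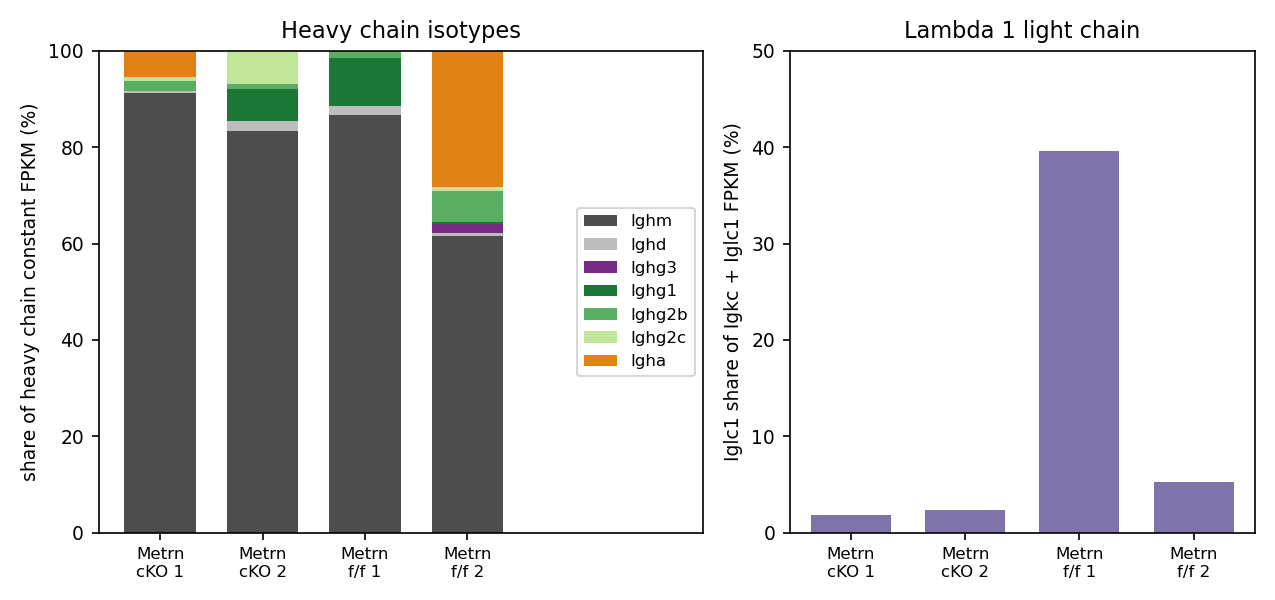
Left, share of the summed heavy chain constant FPKM taken by each gene, in percent, for the 2 Metrn cKO and the 2 Metrn f/f libraries. Right, share of Iglc1 in the sum of Igkc and Iglc1. Ighm is the largest part of each bar on the left, Igha reaches 28.4% in Metrn f/f 2, and Iglc1 stands at 39.6% in Metrn f/f 1.

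The light chain genes were compared next. Igkc, the single kappa constant gene, had 6676 and 71.4 FPKM in Metrn cKO 1 and 2, against 27.8 and 2317 FPKM in Metrn f/f 1 and 2. It was the 8th most abundant of all genes in Metrn cKO 1 and the 49th in Metrn f/f 2, but ranked 886 in Metrn cKO 2 and 2809 in Metrn f/f 1. The mean was 3374 ± 4670 FPKM in Metrn cKO and 1173 ± 1619 FPKM in Metrn f/f (SD, n = 2 each), and the log2 fold change was 1.43 (SE 2.58). Within a genotype, Igkc was 93.5-fold higher in Metrn cKO 1 than in Metrn cKO 2 and 83.2-fold higher in Metrn f/f 2 than in Metrn f/f 1. Iglc1, the lambda 1 constant gene, had 123 and 1.73 FPKM in Metrn cKO 1 and 2, and 18.3 and 128 FPKM in Metrn f/f 1 and 2. The groups overlapped, and the log2 fold change was -1.43 (SE 1.75).

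Lambda chains are the minor light chain of the mouse, and the share of lambda was uneven. Iglc1 made up 1.81% and 2.37% of the sum of Igkc and Iglc1 in Metrn cKO 1 and 2, and 39.6% and 5.22% in Metrn f/f 1 and 2. The 39.6% rested on 18.3 FPKM of Iglc1 beside 27.8 FPKM of Igkc. In that library the only lambda variable segment at 1 FPKM or more was Iglv1, the segment usually joined to Iglc1, at 15.8 FPKM, while Iglc2 and Iglc3 had 0.705 and 0.547 FPKM. With Iglc2, Iglc3 and Iglc4 counted too, lambda made up 4.28% and 7.87% in Metrn cKO 1 and 2, and 41.4% and 10.3% in Metrn f/f 1 and 2.

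Jchain had 294 and 3.14 FPKM in Metrn cKO 1 and 2, against 1.85 and 106 FPKM in Metrn f/f 1 and 2. This was the order of Igkc, with a high and a low library in each genotype and a log2 fold change of 1.00 (SE 2.28). Relative to the sum of Ighm and Igha, whose chains it links, Jchain stood at 0.0810 and 0.0167 in Metrn cKO 1 and 2, and at 0.0129 and 0.1002 in Metrn f/f 1 and 2. The balance of light and heavy chains also differed between libraries. Light over heavy constant FPKM was 1.81 and 0.325 in Metrn cKO 1 and 2, and 0.278 and 2.07 in Metrn f/f 1 and 2, so heavy chain transcripts exceeded light chain transcripts in the libraries with low immunoglobulin levels.

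Variable segments were set beside the constant genes they are spliced to. The summed Igkv segments stood at 0.955 and 0.747 of Igkc in Metrn cKO 1 and 2, and at 0.932 and 0.902 in Metrn f/f 1 and 2. The summed Ighv segments stood at 1.10 and 0.379 of the heavy chain constant sum in Metrn cKO 1 and 2, and at 0.430 and 0.848 in Metrn f/f 1 and 2. Heavy chain constant levels therefore exceeded those of the variable segments most in Metrn cKO 2 and Metrn f/f 1, while kappa constant and variable levels lay close together in the 4 libraries. Igkv segments at or above 1 FPKM numbered 65 and 4 in Metrn cKO 1 and 2, and 1 and 60 in Metrn f/f 1 and 2. The kappa ratio of Metrn f/f 1 thus rested mainly on Igkv12-44, at 23.9 FPKM of a sum of 25.9. In Metrn cKO 1 the leading segments were Ighv11-2, at 1034 FPKM, and a kappa segment of the Igkv14 family, at 1824 FPKM, a heavy and light chain pair known from B-1 cells of the mouse that bind phosphatidylcholine. The same 2 segments had 10.9 and 15.6 FPKM in Metrn cKO 2, were listed at 0 in Metrn f/f 1, and had 36.6 and 146 FPKM in Metrn f/f 2.

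**Figure D3:**
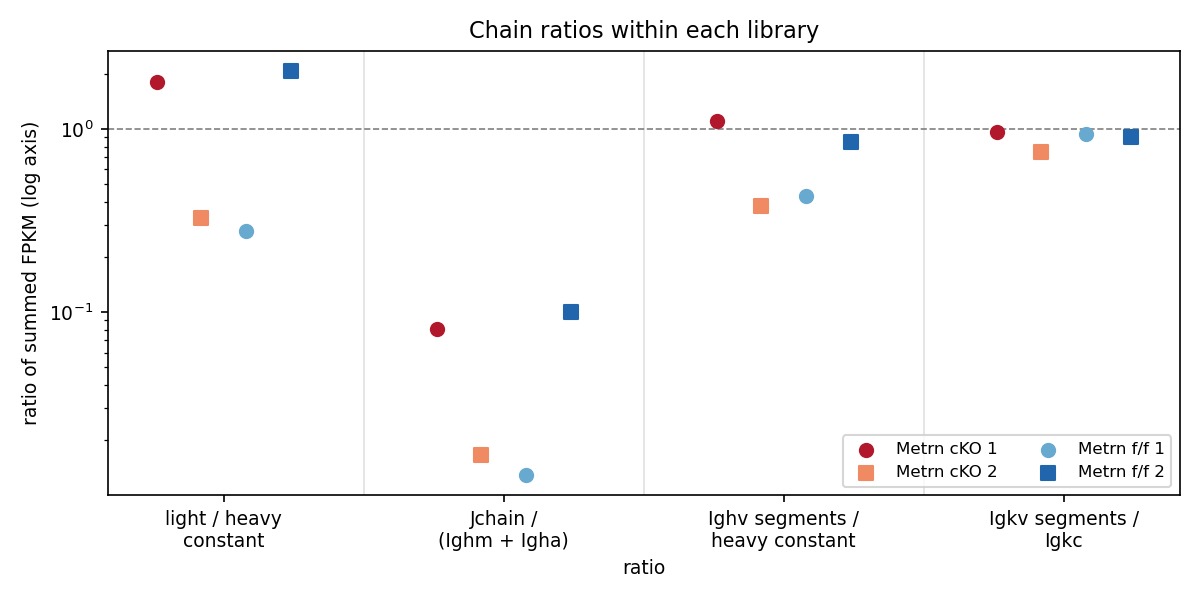
Ratios of summed FPKM within each of the 2 Metrn cKO and 2 Metrn f/f libraries, on a log axis, with a dashed line at 1. Light over heavy constant is 1.81 and 0.325 in the Metrn cKO libraries, against 0.278 and 2.07 in the Metrn f/f libraries, while Igkv over Igkc stays between 0.747 and 0.955.

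Genotypes were compared across all genes with limma on log2(FPKM + 1), and 0 of 13148 genes passed at an adjusted p of 0.05 (0% of tested genes), with 39 genes at an unadjusted p under 0.05 (0.297%). The set therefore held 0 genes that passed, and its median log2 fold change was 0.20, beside 0.07 over all tested genes. Within genotypes the differences were larger. Between the Metrn cKO mice, 8 of the 10 genes were at least 2-fold higher in Metrn cKO 1 on the log2(FPKM + 1) scale and 6 at least 16-fold higher, beside 6.72% and 0.745% of all tested genes. Ighg1 was the 1 gene at least 2-fold lower there (12.4% of tested genes), and Ighg2c differed by less than 2-fold. Between the Metrn f/f mice, 9 genes were at least 2-fold higher in Metrn f/f 2 (13.7% of tested genes), 5 at least 16-fold higher (0.517%), and Ighg1 was lower (21.9%). Between the low libraries, Metrn cKO 2 over Metrn f/f 1, 2 genes were at least 2-fold higher (0.745%) and 1, Iglc1, at least 2-fold lower (0.616%). The genes higher there were Igkc, by 1.33 on the log2 scale, and Ighg2c, which is listed at 0 in Metrn f/f 1. Between the high libraries, Metrn cKO 1 over Metrn f/f 2, Igkc, Ighm, Ighg2c and Jchain were at least 2-fold higher (4 genes, beside 7.09%), and Ighg1 and Ighg3 were at least 2-fold lower (2 genes, beside 6.33%).

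Leaving out 1 library turned the direction of the difference between genotypes for 9 of the 10 genes. The share of all tested genes that turned was not computed. Igkc ranged from -1.84 to 4.69 on the log2 scale and Jchain from -2.08 to 4.08. Ighg2c stayed higher in Metrn cKO, which had to follow from its groups not overlapping and adds no support. Its log2 fold change was 1.20 without Metrn f/f 1, while without Metrn f/f 2 the remaining Metrn f/f library was listed at 0.

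Genes that accompany antibody production were read next, with 0 passing in either direction in each list. Of 16 plasma cell genes, 14 were tested, the median log2 fold change was 0.22, and of these 2 were higher (14.3%) and 0 lower in Metrn cKO without overlap of the groups, beside 6.31% higher and 5.73% lower over all tested genes. Mzb1, a chaperone of IgM assembly, had 67.8 and 2.23 FPKM in Metrn cKO 1 and 2, against 3.13 and 39.97 FPKM in Metrn f/f 1 and 2. It thus had the library order of Ighg2b. The most abundant genes of the list moved less: the signal peptidase subunit gene Sec11c had 129 and 82.2 FPKM in Metrn cKO and 81.4 and 172 FPKM in Metrn f/f. Xbp1, a transcription factor of the secretory programme, had 77.8 and 31.3 FPKM in Metrn cKO and 34.6 and 65.8 FPKM in Metrn f/f, and the disulfide isomerase gene Txndc5 had 50.9 and 36.6 against 35.8 and 38.6 FPKM. Markers of plasma cells did not all move alike. Pou2af1, Irf4, Slamf7 and Derl3 were higher in Metrn cKO 1 than in Metrn cKO 2 and in Metrn f/f 2 than in Metrn f/f 1. Tnfrsf13b and Ell2 were lower in both comparisons, and Sdc1 and Edem1 were higher in the first and lower in the second. Sdc1, the plasma cell surface marker CD138, had 12.9 and 10.9 FPKM in Metrn cKO and 10.05 and 8.37 FPKM in Metrn f/f, and Tnfrsf13b, the receptor TACI, lay between 18.2 and 25.8 FPKM. Prdm1, the regulator of plasma cell fate, stood between 0.0978 and 0.701 FPKM, and Tnfrsf17, the plasma cell survival receptor BCMA, had 2.36 FPKM in Metrn cKO 1, 0.860 in Metrn f/f 2 and was listed at 0 in the other libraries.

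Of 19 mature B cell genes, 18 were tested, with a median log2 fold change of 0.27, and without overlap 1 was higher (5.56%) and 1 lower (5.56%), beside 6.31% and 5.73% of all tested genes. Cd79a and Cd79b, the signalling chains of the B cell receptor, had 200 and 71.6 FPKM in Metrn cKO 1 and 14.8 and 22.5 FPKM in Metrn cKO 2, against 14.9 and 17.5 FPKM in Metrn f/f 1 and 129 and 65.2 FPKM in Metrn f/f 2. The tetraspanin gene Cd37 was between 118 and 172 FPKM in the 4 libraries. Ms4a1, which encodes CD20, had 3.54 FPKM in Metrn cKO 1 and 3.01 in Metrn f/f 2, and at most 0.188 FPKM in the others. Genes of this list did not all move alike. Btk was lower in Metrn cKO 1 than in Metrn cKO 2 and in Metrn f/f 2 than in Metrn f/f 1. Cd72 was lower only in the first comparison and Bach2 only in the second. The pre-B cell list (8 of 8 tested, median 0.70, without overlap 2 higher, or 25%, and 0 lower, beside 6.31% and 5.73% of all tested genes) was led by Dntt, the terminal transferase, at 388 and 232 FPKM in Metrn cKO and 168 and 189 FPKM in Metrn f/f. The surrogate light chain genes Igll1 and Vpreb1, which stand in for Igkc or Iglc1 on pre-B cells, had 196 and 171 FPKM in Metrn cKO 1 and 14.8 and 10.1 FPKM in Metrn cKO 2, against 12.3 and 6.51 FPKM in Metrn f/f 1 and 94.0 and 77.7 FPKM in Metrn f/f 2. Rag1 and Rag2 were high in Metrn cKO 1 alone, at 9.45 and 7.48 FPKM. They had 1.84 and 2.69 FPKM in Metrn cKO 2, 1.89 and 1.76 in Metrn f/f 1, and 1.10 and 1.71 in Metrn f/f 2.

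Of 22 genes of class switch recombination 21 were tested, with a median of 0.26, and without overlap 3 were higher (14.3%) and 1 lower (4.76%), beside 6.31% and 5.73% of all tested genes. Repair genes used in switching were present in each library, among them the endonuclease gene Apex1 at 68.6 and 79.8 FPKM in Metrn cKO and 63.6 and 110 FPKM in Metrn f/f, and the end-joining gene Xrcc6 at 55.3 and 53.0 FPKM in Metrn cKO and 44.8 and 36.2 FPKM in Metrn f/f. The summed list was 283 and 373 FPKM in Metrn cKO 1 and 2, and 338 and 292 FPKM in Metrn f/f 1 and 2, so it was lower in the libraries with the highest Igkc.

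Receptors and carriers of antibody had a median of -0.25 over 13 tested of 17 genes, and without overlap 1 was higher (7.69%) and 0 lower, beside 6.31% and 5.73% of all tested genes. Fcer1g, the signalling chain of Fc receptors on myeloid cells, had 231 and 46.5 FPKM in Metrn cKO and 48.4 and 346 FPKM in Metrn f/f. Fcgr3, an IgG receptor, had 74.4 and 25.3 against 36.3 and 92.5 FPKM, and the inhibitory IgG receptor gene Fcgr2b had 56.5 and 19.9 against 22.0 and 56.6 FPKM. Pigr, the epithelial carrier of IgA and IgM, stood at 0.633 FPKM or less. Of 18 genes of protein folding in the secretory pathway, 17 were tested (median -0.07, without overlap 0 higher and 1 lower, or 5.88%, beside 6.31% and 5.73% of all tested genes). The chaperone genes Calr and Hspa5, the second of which encodes the heavy chain binding protein BiP, had 512 and 492 FPKM against 608 and 514 FPKM, and 243 and 168 FPKM against 200 and 266 FPKM, in Metrn cKO and Metrn f/f. Ppib, a prolyl isomerase, had 197 and 152 FPKM in Metrn cKO and 145 and 322 FPKM in Metrn f/f. The highest library exceeded the lowest by 1.23-fold for Calr, 1.58-fold for Hspa5 and 2.23-fold for Ppib, and by 240-fold for Igkc.

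Transcripts of other mature blood cells moved with the immunoglobulin levels, and their part in them was not tested. All 8 neutrophil genes, 8 erythroid genes and 8 macrophage genes were listed in the files. Beside the neutrophil sums given above (S100a9, S100a8 and Ngp highest), the summed levels in Metrn cKO were 31490 and 3214 FPKM for erythroid genes (Hba-a1, Hbb-bs and Hba-a2 highest) and 180 and 45.2 FPKM for macrophage genes (C1qb, C1qa and C1qc highest). In Metrn f/f the erythroid sums were 3974 and 37580 FPKM and the macrophage sums 39.3 and 992 FPKM. No member of the neutrophil and erythroid lists was at 0 in any library, and of the macrophage list Marco was at 0 in both Metrn cKO libraries and in Metrn f/f 1. The summed members of the set had 10850 and 302 FPKM in Metrn cKO and 214 and 3734 FPKM in Metrn f/f, which was 1.93% and 0.0730% of all FPKM in Metrn cKO and 0.0545% and 0.556% in Metrn f/f. Plasma cell genes summed to 504 and 238 FPKM in Metrn cKO and 249 and 454 FPKM in Metrn f/f, and mature B cell genes to 659 and 274 against 243 and 496 FPKM. By these sums, Metrn f/f 2 exceeded Metrn cKO 1 in macrophage and erythroid genes. Metrn f/f 2 lay below Metrn cKO 1 in neutrophil, immunoglobulin, plasma cell and B cell genes. The 8 T and NK cell genes, led by Nkg7, Lck and Cd4, summed to 202 and 168 FPKM in Metrn cKO and 167 and 281 FPKM in Metrn f/f, with Cd3g and Cd3e at 0 in Metrn cKO 2 and Cd3d at 0 in Metrn f/f 1. The 9 LSK genes were led by Cd34, Flt3 and Kit. Their sum ran the other way, at 296 and 767 FPKM in Metrn cKO and 655 and 410 FPKM in Metrn f/f. Ly6a was instead higher in Metrn cKO 1 than in Metrn cKO 2 and in Metrn f/f 2 than in Metrn f/f 1. Procr and Slamf1 were lower in the first comparison and higher in the second.

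**Figure D4:**
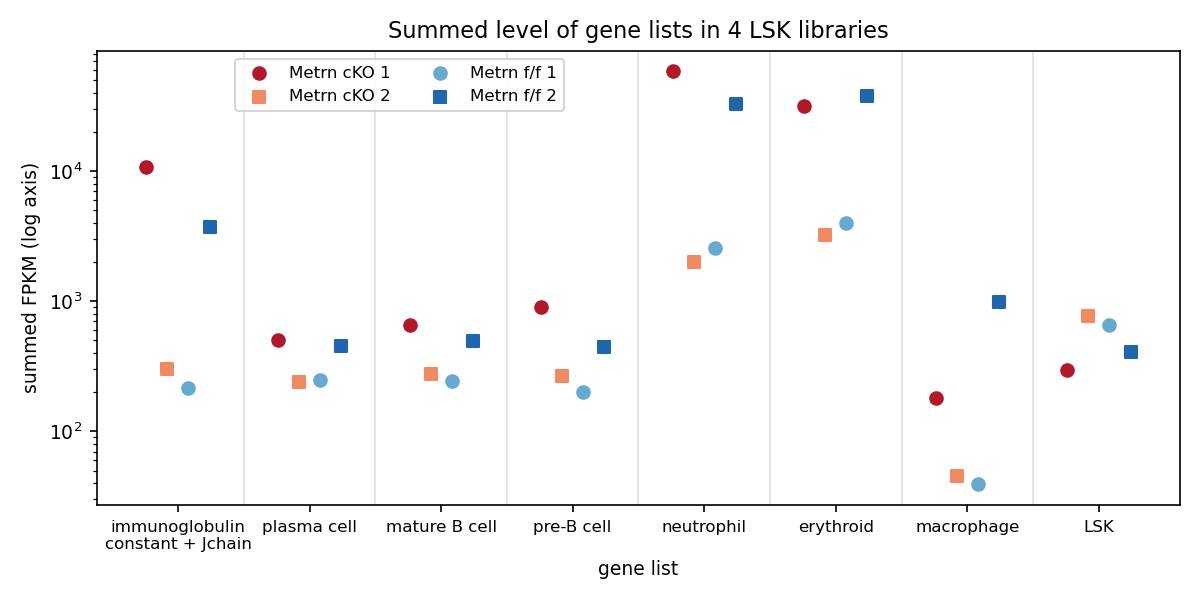
Summed FPKM of gene lists, on a log axis, in the 2 Metrn cKO and the 2 Metrn f/f libraries. Immunoglobulin constant genes with Jchain are at 10850 and 302 FPKM in Metrn cKO and at 214 and 3734 FPKM in Metrn f/f. Sums of neutrophil, erythroid and macrophage genes are also high in Metrn cKO 1 and Metrn f/f 2, while the sum of LSK genes is lower there.

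Outside the immunoglobulin loci, the genes whose profile over the 4 libraries was nearest to the mean profile of the set were ranked among 8957 genes with a mean of at least 4 FPKM. Likeness was the Euclidean distance between log2(FPKM + 1) values centred on each gene's mean, over 4 libraries, among which Metrn cKO 1 and Metrn f/f 2 also share high neutrophil and erythroid levels. The nearest were Prg3, an eosinophil granule protein gene (distance 0.466), Cd79a (0.475) and Ly6a2 (0.495). Lyz2, the lysozyme gene of myeloid cells (0.548), Ly6d, a marker of early B lineage cells (0.593), Pglyrp1, a granule protein gene (0.601), Wfdc21 (0.616) and the eosinophil ribonuclease gene Ear6 (0.617) followed. Prg3 had 49.7 and 3.75 FPKM in Metrn cKO 1 and 2, and 3.35 and 64.8 FPKM in Metrn f/f 1 and 2. Genes of granulocytes and of B lineage cells thus stood side by side among the nearest.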

How the data were processed

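RNA-seq was measured in sorted LSK cells of 2 Metrn cKO and 2 Metrn f/f mice, per the labels' protocols, so the libraries are separate mice. Tools listed by the submitters' processing notes, with no role, are HISAT2 2.1 and featureCounts 1.6.4, cutadapt 1.16.5 and bcl2fastq 2.19, and DESeq2 2.11.40.6, on mm10. Annotation and strand setting were not given in the sources used here, so overlapping antisense reads cannot be told apart. The authors deposited 1 value per gene and library, taken as FPKM from the values (decimals, never negative, unequal sums). Values under 1 FPKM showed no steps of whole reads: between any 2 libraries, at most 8 of 4365 to 6159 such genes shared a ratio (classes 0.05% wide), so read totals could not be recovered.

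The 13148 genes that reached 1 FPKM in 2 or more libraries were fitted with limma 3.58.1 (R 4.3.3) on log2(FPKM + 1) with an intensity trend, 2-sided, with Benjamini-Hochberg adjustment over all of them. All 10 genes of the set passed this filter. Fold changes are Metrn cKO over Metrn f/f on the log2(FPKM + 1) scale, which understates those of low genes, and SE is the moderated error. The design foresaw counts or FPKM and the FPKM test was used. The fit was also run on simulated data with independent noise of a fixed size. The libraries here deviate together, so that run checked the code and not the power or error rate in these data. Shares and ratios were computed per library with pandas 2.3.3. Positions and coding sequences came from GENCODE M21 on GRCm38, and sequences were aligned with Biopython 1.88. Named genes are all members, Metrn, the 3 most abundant genes of each list and the nearest 8 genes by profile, apart from results not reported here. Mzb1, Sdc1, Tnfrsf13b, Prdm1, Tnfrsf17, Ms4a1, Pigr, the named variable segments and Iglc4 fall outside that rule and were picked with their values known. The same holds for Pou2af1, Irf4, Slamf7, Derl3, Ell2, Edem1, Btk, Cd72, Bach2, Rag1, Rag2, Procr, Slamf1, Marco, Cd3d, Cd3e and Cd3g. The members and lists were chosen with earlier results of these data known.

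Alternatives were other pseudocounts, no filter, rescaled or quantile-normalized values, a replicate block and each library left out.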

Additional observations from a re-analysis of the deposited data

How the results depend on the processing

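Pseudocounts of 0.1 and 5, no filter, rescaling to equal sums and quantile normalization left 0 genes called, and no member changed direction under them. A replicate block leaves each fold change as it is in this balanced design and alters only its error. With a block on the labels' numbers calls numbered 3 higher and 1 lower, with 3 immunoglobulin genes and 0 members among these 4. Same-numbered libraries deviated in opposite directions (correlation -0.708 over 13148 genes). With the crossed pairing, chosen after seeing the data, 37 of these genes were called higher and 65 lower. Of these 102, 28 were immunoglobulin genes. That pairing came from the same values, so these calls are a description and no test. How many of the tested genes were immunoglobulin genes was not counted. The 3 and the 28 therefore cannot be set beside the share of all tested genes called. Leaving out 1 library at a time gave 0 to 32 genes called higher and 0 to 5 lower: 5 lower without Metrn cKO 1, 32 higher and 2 lower without Metrn cKO 2, and 0 without either Metrn f/f library. Each of these fits has 1 genotype with a single library, which is assumed to vary like the other genotype. Most genes called in these fits were immunoglobulin genes, and these calls are a description and no test. The set was chosen with its levels known, so no call is given for its members. The median log2 fold change of the set was 4.53 between Metrn cKO 1 and Metrn f/f 1 alone and -4.58 between Metrn cKO 2 and Metrn f/f 2 alone, also chosen after seeing the data. Without single libraries it ranged from -1.96 to 2.73, that of plasma cell genes from -0.55 to 0.57, of mature B cell genes from -0.50 to 1.08, of class switch genes from -0.20 to 0.44, of antibody receptors from -1.07 to 0.59 and of folding genes from -0.28 to -0.0018. With the other lambda genes added, lambda made up 4.28% and 7.87% in Metrn cKO 1 and 2. Without the 20 most abundant genes, Igkc and Ighm among them in Metrn cKO 1, the set took 0.170% of FPKM there. Adding Ighe moved no isotype share beyond the spread between mice. Apart from the members removed with the most abundant genes, the causes were not tested. With unknown read totals, low values and exact zeros carry an unknown counting error.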
